A study of Xenopus laevis with 79 samples.

Results

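Nonneural ectoderm (NNE), the part of the frog ectoderm that becomes epidermis, was followed over the interval from the early neurula at stage (St.) 12.5 to the mid-neurula at St. 14 of the table of Nieuwkoop and Faber, in wild type *Xenopus laevis*. The libraries were chosen by their titles, 6 of NNE at St. 14 and 3 of NNE at St. 12.5, which is 9 of the 79 libraries of the series. At St. 14 the tissue had been cut into an anterior piece (NNEa, 3 libraries) and a posterior piece (NNEp, 3 libraries), and at St. 12.5 it was taken as 1 piece (3 libraries). Each library came from 1 explant of 1 embryo without treatment, cut free of the underlying mesoderm, and messenger RNA was sequenced as paired reads. The St. 12.5 explants came from embryos 4, 5, and 7, NNEa from embryos 10, 13, and 14, and NNEp from embryo 10 once and embryo 11 in both other replicates, so that only embryo 10 gave both pieces. Explants were taken laterally and ventrally at St. 12.5 and laterally at St. 14, and stage and position of the explant therefore cannot be told apart. Different explants were sequenced at each stage, and p-values measure the spread between these explants. A gene was called changed when edgeR's quasi-likelihood test over all tested loci gave a Benjamini-Hochberg adjusted p (FDR) below 0.05 and the fitted change had the same sign in NNEa and in NNEp, each set against the same 3 St. 12.5 libraries. The NNE libraries were then set beside 13 libraries of neural plate (NP) explants, 7 at St. 14 and 6 at St. 12.5, and 4 of whole embryos, 2 at each stage. The neural plate explants came from the same embryos as the NNE explants of their stage, some embryos giving several libraries. The p-values of differences between NNE and neural plate do not take this sharing into account.

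The larval frog epidermis forms from ectoderm in which bone morphogenetic protein (BMP) signaling stays active, and BMP targets such as gata2, gata3, dlx3, and the ventx homeobox genes mark this fate over the neural one. Its outer layer gives rise to mucus-secreting goblet cells and its inner layer holds basal cells that express tp63, while multiciliated cells, ionocytes, and small secretory cells are specified in the inner layer, partly through Notch signaling, and later insert among the goblet cells. Keratins, desmosomes, claudin-based tight junctions, and integrins that bind the basement membrane build the sheet. The genome of *X. laevis* holds 2 copies of many genes, given here as .l and .s after the gene name, and since pairs mapping to several places had been excluded, levels of very similar copies are uncertain.

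The 9 libraries held from 11145930 to 15313773 counted fragments each, and no 2 of the 9 libraries were identical. Levels are given as CPM, counts scaled to the TMM-adjusted size of the library. They are not adjusted for gene length and are compared between libraries only. Log2 changes are of St. 14 over St. 12.5. The value after ± is a standard error worked back from the test, the size of the log2 change divided by the square root of its F statistic. It is rough for loci near 0 in a group. The label of nonneural ectoderm was checked against 16 loci of its defining markers (krt12, tfap2a, tp63, dlx3, gata2, gata3, grhl3, foxi4.2), whose summed level was 4048 to 8036 CPM in NNEa, 6693 to 9270 CPM in NNEp, and 7537 to 9319 CPM at St. 12.5. The keratin krt12.s alone, at 2085 to 6570 CPM, gave most of the sum in each St. 14 library. Both loci of dlx3, gata2, and gata3, and foxi4.2.s, were lower in every St. 14 library than in any St. 12.5 library. The tp63.l locus was higher in all 6 St. 14 libraries, and the other loci overlapped. Markers of the neural plate (sox2, sox3, zc4h2, rfx4) summed to at most 147.6 CPM, in NNEa replicate 2. Markers of the neural border and crest, pax3 and snai2, summed to 200.6 to 316.7 CPM in NNEa, 8.47 to 34.4 CPM in NNEp, and 3.59 to 7.74 CPM at St. 12.5, so that NNEa held far more border transcript than the other 6 libraries. Defining mesoderm markers (myod1, t, actc1) summed to 4.13 to 16.0 CPM in NNEa, 6.56 to 21 CPM in NNEp, and 0.163 to 2.05 CPM at St. 12.5, and those of endoderm and of blood summed to at most 1.23 CPM in any library. In RNA of whole explants, fewer cells of a type and less RNA per cell cannot be told apart.

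Of 19702 loci tested, 6564 (33.3%) were called, 3322 (16.9%) higher and 3242 (16.5%) lower at St. 14, and the median log2 change of all tested loci was 0.06. Without the rule on signs 6619 loci (33.6%) passed, and 55 of them (0.279% of the loci tested) had opposite signs in NNEa and NNEp. Without St. 12.5 replicate 2, 4211 loci were called, and the loci called higher numbered 2091, 1710, and 1869 without St. 12.5 replicates 1, 2, and 3, each left out alone. With the counts of each embryo summed, 5213 loci passed the FDR (2646 higher, 2567 lower), where the rule on signs was not applied. Among loci described here the calls of agr2.s, atp6v0b.l, ca12.l, capn9.s, cldn1.l, dlc.l, dsp.s, foxi1.s, hes3.3.s, jup.l, krt17.l, marveld2.s, perp-like.s, and tekt1.s were lost there. Without the 2 libraries of embryo 11 the calls of atp6v0b.l, capn9.s, cldn1.l, dlc.l, dll1.l, dnah3.l, dnah6.s, dsp.s, gdf6.l, hes3.3.s, jup.l, krt17.l, marveld2.s, msx1.s, perp-like.s, slc7a5.l, tekt1.s, and muc4 were lost. Without the libraries of embryos 13 and 14 the calls of agr2.s, gdf6.l, jup.l, krt17.l, krt80.l, msx1.s, perp-like.s, spdef.s, gata2, and a gata3 locus (xelaev18020919m.g) were lost. With 1 mean for the 6 St. 14 libraries, also without the rule on signs, the calls of agr2.s, ca12.l, cldn1.l, dsp.s, foxd3.l, foxi1.s, gdf6.l, grhl2.l, hes3.3.s, jup.l, mafb.l, and perp-like.s were lost. Taken alone against St. 12.5, NNEa differed at 5443 loci (27.6%) and NNEp at 5804 (29.5%). At 6285 loci (31.9%) no St. 14 library overlapped a St. 12.5 library (15.4% of the loci tested higher and 16.5% lower). Of the 3242 loci called lower 2772 were without overlap, and of the 3322 called higher 2561. These shares are the background for the counts of each gene list below, and no test over a list was made. NNEa differed from NNEp at 675 loci (3.43%), a count that was 2885, 302, and 277 without NNEa replicates 1, 2, and 3 and 234 and 405 without NNEp replicates 2 and 3. BMP pathway genes, regulators of multiciliated cells, and many of the early epidermal transcription factors were lower at St. 14, the main epidermal keratins were not called, and border genes were higher in NNEa. With all 51 libraries of separate regions in 1 fit the split moved, with 36.3% of 7328 called loci higher, against 50.6% of the calls here. Among loci described here, this fit lost the calls of agr2.s, ca12.l, capn9.s, ccno.l, cldn1.l, foxi1.s, hes1.s, msx1.s, spdef.s, tekt1.s, twist1.s, vgll1.s, gata2, gata3 (xelaev18020919m.g), and mcidas.

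**Figure D1:**
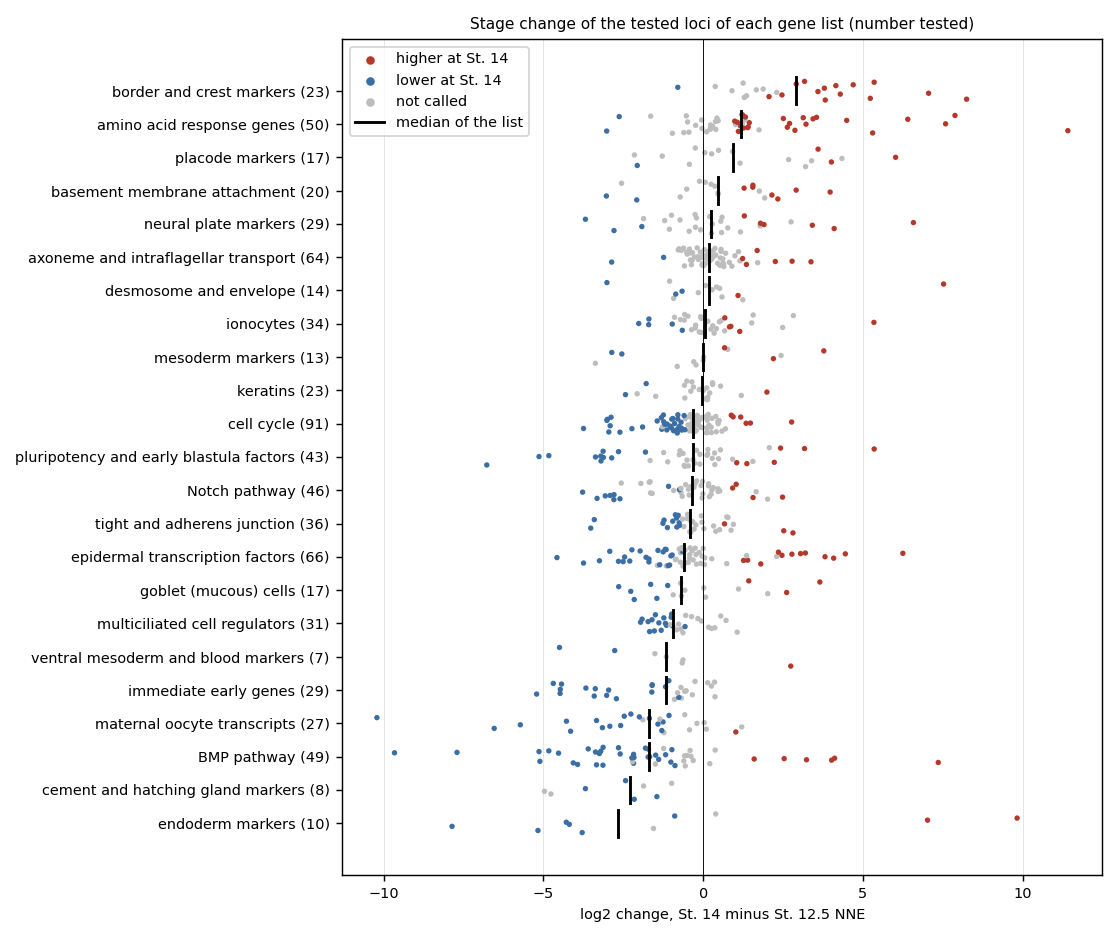
Log2 change from St. 12.5 to St. 14 in NNE (x axis) of each tested locus of the gene lists (rows, with the number of loci tested), red where called higher, blue where called lower, and gray where not called, with a bar at the median of the list. The BMP pathway row has its median at -1.71 and the border and crest row at 2.91, while keratins lie at -0.03 and axoneme genes at 0.18.

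Epidermal keratin was abundant at both stages and its level was not called changed. The larval epidermal keratin krt12.s had 5558, 2085 and 2423 CPM in NNEa and 4402, 3710.5 and 6570.0 CPM in NNEp at St. 14, against 3967, 3246 and 3791 CPM at St. 12.5, and the groups overlapped (log2 change 0.14 ± 0.30, adjusted p = 0.74). The type II keratin krt5.7.s reached the highest level of the keratins, 5902 to 20028 CPM (median 14064) at St. 14, against 12013, 9871 and 11572 CPM at St. 12.5, again with overlap (log2 change 0.11 ± 0.27, adjusted p = 0.78). Within St. 14, NNEa replicates 2 and 3 held the lowest levels of both genes and NNEa replicate 1 was as high as NNEp. Of 23 keratin loci tested, 1 rose and 2 fell, with a median log2 change of -0.03. The median was -0.48 in NNEa and 0.42 in NNEp, and 5 of the 23 were lower in NNEa than in NNEp (background 1.71%) and 0 higher. One of the 5, krt12.l, had 125, 123 and 112 CPM in NNEa and 246, 324 and 404 CPM in NNEp at St. 14, against 222, 306 and 354 CPM at St. 12.5, below St. 12.5 in every NNEa library, and was not called although its mean change passed the FDR (adjusted p = 0.047), since the fitted changes in NNEa and NNEp had opposite signs. The keratin that rose was krt18.s, a keratin of simple epithelia, with 358, 306 and 446 CPM in NNEa and 728, 816 and 1158 CPM in NNEp at St. 14, against 175, 80.05 and 179 CPM at St. 12.5 (log2 change 2.00 ± 0.30, adjusted p = 0.00086). All 6 St. 14 libraries lay above the 3 of St. 12.5, and NNEp above NNEa. The 2 that fell, krt80.l (0.619 to 2.25 CPM (median 1.08) at St. 14, against 2.32, 4.17 and 6.58 CPM at St. 12.5) and krt17.l (0.140 to 0.920 CPM (median 0.388) at St. 14, against 0.744, 1.47 and 4.62 CPM at St. 12.5), were scarce. The adjusted p of krt80.l rose to 0.0937 without St. 12.5 replicate 3 and that of krt17.l to 0.183 without St. 12.5 replicate 3.

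Of 14 desmosome and envelope loci, 2 rose (14.3%) and 3 fell (21.4%), shares near those of all loci tested (median log2 change 0.18). Desmoplakin, dsp.s, which ties keratin to desmosomes, had 551, 320.1 and 280.4 CPM in NNEa and 626, 591 and 910.5 CPM in NNEp at St. 14, against 119.7, 279.7 and 335 CPM at St. 12.5 (log2 change 1.09 ± 0.34, adjusted p = 0.032), and NNEa replicates 2 and 3 lay within the St. 12.5 range. Its log2 change exceeded that in neural plate by 1.97 ± 0.43, adjusted p = 0.0018. The transglutaminase tgm1.s, an enzyme that crosslinks the envelope of keratinocytes in mammals, had 1.07, 3.43 and 1.1 CPM in NNEa and 1.14, 2.68 and 1.68 CPM in NNEp, against 0 in the 3 St. 12.5 libraries, which is at least 7.03-fold higher with 3 counts per library as the floor. Plakoglobin, jup.l, had 106 to 331 CPM (median 284) at St. 14, against 499, 342 and 458 CPM at St. 12.5 (log2 change -0.86 ± 0.29, adjusted p = 0.043), and the tetraspan desmosome protein perp-like.s had 124 to 316 CPM (median 219.6) at St. 14, against 317, 298 and 346 CPM at St. 12.5 (log2 change -0.66 ± 0.21, adjusted p = 0.036). The calls of dsp.s, jup.l, and perp-like.s depended on single libraries. The adjusted p of dsp.s rose to 0.112 without St. 12.5 replicate 1, 0.0793 without St. 12.5 replicate 2 and 0.062 without NNEp replicate 3, that of jup.l to 0.0523 to 0.138 without any library other than NNEa replicate 1, and that of perp-like.s to 0.0555 to 0.0873 without any library other than NNEa replicate 1 and NNEp replicate 3.

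Of 36 tight and adherens junction loci, 12 fell and 3 rose (median log2 change -0.41). Claudins are the strand-forming proteins of tight junctions. The abundant claudin cldn4.l had 1129, 692 and 675 CPM in NNEa and 911, 829.7 and 1143 CPM in NNEp at St. 14, against 2337, 1844 and 1647 CPM at St. 12.5, a fall in every St. 14 library (log2 change -1.12 ± 0.20, adjusted p = 0.0023). A cldn7 locus (xelaev18019668m.g) had 272 to 322 CPM (median 317) at St. 14, against 704, 507 and 483 CPM at St. 12.5 (log2 change -0.87 ± 0.16, adjusted p = 0.0025). Tricellulin, marveld2.s, which sits where 3 cells meet, had 0.307 to 10.7 CPM (median 0.703) at St. 14, against 18.4, 15.3 and 20.8 CPM at St. 12.5 (log2 change -3.41 ± 0.78, adjusted p = 0.0076), and NNEa replicate 3 alone accounted for the highest St. 14 value. Its adjusted p rose to 0.094 with counts summed per embryo and to 0.0575 without embryo 11. A claudin that went the other way, cldn1.l, had 21.2, 4.74 and 1.38 CPM in NNEa and 185, 182 and 241 CPM in NNEp at St. 14, against 1.67, 9.47 and 11.2 CPM at St. 12.5, high in the NNEp libraries and at or below the top of the St. 12.5 range in NNEa replicates 2 and 3 (log2 change 2.52 ± 0.78, adjusted p = 0.03). This call did not hold with libraries left out, at an adjusted p of 0.104 without St. 12.5 replicate 1, 0.0844 without St. 12.5 replicate 2, 0.0664 without St. 12.5 replicate 3, 0.0373 without NNEa replicate 1 and 0.055 without NNEp replicate 3, the value without NNEa replicate 1 failing on opposite signs in NNEa and NNEp. E-cadherin, cdh1.l, rose at a low level, with 0.962 to 14.0 CPM (median 4.1) at St. 14, against 0.930, 0.490 and 0.356 CPM at St. 12.5 (log2 change 2.81 ± 0.58, adjusted p = 0.0047).

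Of 20 loci for attachment to the basement membrane, 7 rose and 2 fell (median log2 change 0.47). Integrin α6, itga6.s, a subunit of hemidesmosomes, had 2.07, 3.11 and 1.58 CPM in NNEa and 11.0, 9.23 and 9.54 CPM in NNEp at St. 14, against 0.186, 0.327 and 0.356 CPM at St. 12.5, with no overlap (log2 change 3.98 ± 0.42, adjusted p = 0.00013). Integrin α3, itga3.l, a laminin receptor subunit, had 7.29, 4.33 and 9.70 CPM in NNEa and 49.1, 57 and 30.6 CPM in NNEp at St. 14, against 3.25, 4.25 and 4.62 CPM at St. 12.5, NNEa replicate 2 lying within the St. 12.5 range and NNEp far above it (log2 change 2.15 ± 0.33, adjusted p = 0.00099). Nidogen 2, nid2.l, a linker of basement membrane networks, had 78.9 to 143 CPM (median 122) at St. 14, against 45.3, 37.4 and 37.1 CPM at St. 12.5 (log2 change 1.56 ± 0.21, adjusted p = 0.00044). The matrix glycoprotein emilin1.l, one of the 5 rises with the smallest p, had 30.8, 27.4 and 31.2 CPM in NNEa and 47.7, 32.5 and 24.4 CPM in NNEp at St. 14, against 0.372, 0.572 and 0.178 CPM at St. 12.5, which made it nearly absent at St. 12.5 and even across the 6 St. 14 libraries (log2 change 6.38 ± 0.41, adjusted p = 1.4e-05).

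**Figure D2:**
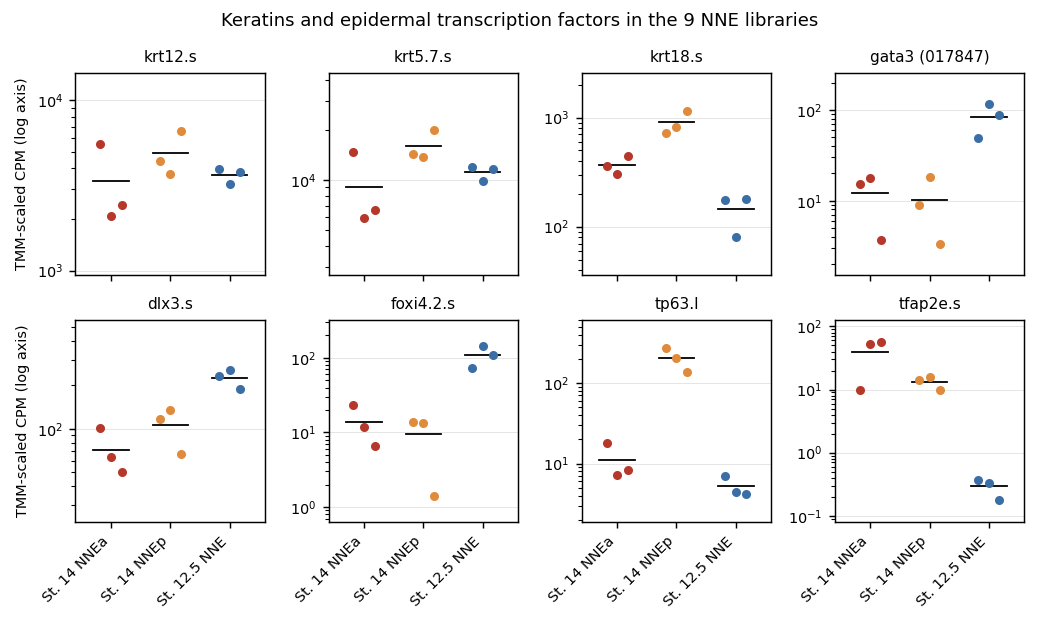
TMM-scaled CPM (log axes) of keratins and epidermal transcription factors in NNEa and NNEp at St. 14 and NNE at St. 12.5, each point 1 library (n = 3 per group) and each bar the group mean. The St. 14 libraries of krt12.s and krt5.7.s overlap those of St. 12.5, gata3, dlx3.s, and foxi4.2.s are lower in all 6, and tp63.l is highest in NNEp at 137 to 273 CPM.

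Transcription factors of the early epidermis fell more often than they rose, at 23 lower (34.85%) and 12 higher (18.2%) of 66 loci tested (median log2 change -0.60). The share that rose was near that over all loci tested (16.9%). Factors of the BMP-dependent nonneural program were among those that fell. The forkhead factor foxi4.2.s, which specifies ectoderm in the frog blastula, had 23.3, 11.7 and 6.61 CPM in NNEa and 14.0, 13.3 and 1.40 CPM in NNEp at St. 14, against 74.1, 145 and 109 CPM at St. 12.5 (log2 change -3.25 ± 0.56, adjusted p = 0.0018). A gata3 locus (xelaev18017847m.g) had 15.2, 17.7 and 3.65 CPM in NNEa and 8.92, 18.4 and 3.37 CPM in NNEp at St. 14, against 49.8, 116 and 87.9 CPM at St. 12.5 (log2 change -2.92 ± 0.52, adjusted p = 0.0022). Its relative gata2 (xelaev18023995m.g) had 273, 201 and 178 CPM in NNEa and 424, 397 and 103 CPM in NNEp at St. 14, against 578, 924 and 567 CPM at St. 12.5 (log2 change -1.41 ± 0.36, adjusted p = 0.013), and its adjusted p rose to 0.0697 without St. 12.5 replicate 2. At these 3 loci NNEp replicate 3 held the lowest value, and no St. 14 library reached the St. 12.5 range. The homeobox factor dlx3.s had 101, 63.7 and 50.4 CPM in NNEa and 117, 134 and 67.1 CPM in NNEp at St. 14, against 229.6, 254 and 187 CPM at St. 12.5 (log2 change -1.36 ± 0.26, adjusted p = 0.0031). The Krüppel-like factor klf5.l had 145, 97.8 and 66.1 CPM in NNEa and 97.2, 91.5 and 93.9 CPM in NNEp at St. 14, against 297, 372 and 352 CPM at St. 12.5, with no overlap (log2 change -1.79 ± 0.22, adjusted p = 0.00028). Other factors that fell were scarcer, such as klf4.s, a regulator of the epidermal barrier in mice, with 0 to 0.614 CPM (median 0.191) at St. 14, against 3.90, 8.25 and 3.73 CPM at St. 12.5, and the epithelial ETS factor elf3.s, with 0 to 1.38 CPM (median 0.487) at St. 14, against 6.23, 2.70 and 5.69 CPM at St. 12.5. The second foxi4 gene, foxi4.1.s, had 3.51 to 18.3 CPM (median 6.43) at St. 14, against 21.8, 64.7 and 59.9 CPM at St. 12.5 (log2 change -2.65 ± 0.45, adjusted p = 0.0017). The level of msx1.s, a homeobox target of BMP, overlapped between stages, with 44.5 to 96.3 CPM (median 60.1) at St. 14, against 135, 189 and 69.9 CPM at St. 12.5 (log2 change -1.01 ± 0.31, adjusted p = 0.027), and its call was lost with an adjusted p of 0.0715 without St. 12.5 replicate 1 and 0.141 without St. 12.5 replicate 2.

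The factors that rose were led by AP-2 genes, which act in epidermis and in neural crest. The AP-2ε gene tfap2e.s had 9.82, 52.2 and 56.8 CPM in NNEa and 14.4, 15.8 and 9.96 CPM in NNEp at St. 14, against 0.372, 0.327 and 0.178 CPM at St. 12.5 (log2 change 6.25 ± 0.70, adjusted p = 0.00019), with every St. 14 library above St. 12.5 and NNEa replicates 2 and 3 highest. The AP-2β copies followed, tfap2b.s with 2.32 to 21.4 CPM (median 5.99) at St. 14, against 0.744, 0.0817 and 0.267 CPM at St. 12.5 (log2 change 4.45 ± 0.69, adjusted p = 0.001) and tfap2b.l with 6.21 to 23.6 CPM (median 10.7) at St. 14, against 3.35, 1.39 and 0.889 CPM at St. 12.5 (log2 change 2.78 ± 0.56, adjusted p = 0.0041). Grainyhead-like 2, grhl2.l, a regulator of epithelial junctions, had 12.5, 27.9 and 22.7 CPM in NNEa and 6.99, 7.88 and 6.59 CPM in NNEp at St. 14, against 4.37, 6.37 and 4.53 CPM at St. 12.5, the NNEa libraries being the high ones (log2 change 1.27 ± 0.30, adjusted p = 0.0086). The TEAD cofactor vgll1.s had 20.4, 12.4 and 6.05 CPM in NNEa and 30.3, 34.8 and 73.3 CPM in NNEp at St. 14, against 2.14, 4.49 and 7.65 CPM at St. 12.5 (log2 change 2.36 ± 0.52, adjusted p = 0.0064), and the bZIP factor mafb.l had 23, 34.7 and 9.77 CPM in NNEa and 2.19, 0.336 and 0 CPM in NNEp at St. 14, against 0.558, 0.0817 and 0.267 CPM at St. 12.5 (log2 change 3.82 ± 1.03, adjusted p = 0.017). NNEa replicate 3 lay within the St. 12.5 range for vgll1.s. NNEp overlapped St. 12.5 for mafb.l, NNEa exceeded NNEp (log2 difference 4.77 ± 0.98, adjusted p = 0.025), and the stage call was lost with an adjusted p of 0.083 without St. 12.5 replicate 2, 0.0725 without St. 12.5 replicate 3 and 0.0633 without NNEp replicate 1. Both loci of tfap2a and of grhl3, general epidermal regulators, were not called.

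The 2 copies of tp63, the master regulator of basal epidermal cells, behaved differently across the explants. The scarcer copy at St. 12.5, tp63.l, had 18.0, 7.11 and 8.39 CPM in NNEa and 273, 207 and 137 CPM in NNEp at St. 14, against 7.07, 4.41 and 4.18 CPM at St. 12.5 (log2 change 3.20 ± 0.40, adjusted p = 0.00031). It was higher in NNEp than in NNEa (log2 NNEa minus NNEp -4.20 ± 0.43, adjusted p = 0.0012). All 6 St. 14 libraries lay above St. 12.5, but NNEa replicate 2 (7.11 CPM) barely exceeded St. 12.5 replicate 1 (7.07 CPM). The call of tp63.l was lost where NNEa and NNEp each had to pass the FDR. The other copy, tp63.s, had 94.9, 88.8 and 78 CPM in NNEa and 613, 443 and 425 CPM in NNEp at St. 14, against 364, 426 and 224 CPM at St. 12.5, below St. 12.5 in NNEa and near or above its highest value in NNEp, and was therefore not called although its mean change passed the FDR. Only embryo 10 gave both pieces, and there tp63.l had 18.0 CPM in NNEa and 273 CPM in NNEp, and tp63.s had 94.9 CPM in NNEa and 613 CPM in NNEp.

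Genes of BMP signaling were mostly lower at St. 14. Of 49 loci tested, 31 fell and 6 rose, and the median log2 change was -1.71. Of the falls 26 were without overlap between stages, against 2772 of 3242 over all loci called lower. Summed over the list, levels were 826.7 to 1304 CPM in NNEa and 882.6 to 1715 CPM in NNEp, against 2695 to 3649 CPM at St. 12.5. Among the ligands, bmp4.s had 9.20, 4.50 and 6.19 CPM in NNEa and 8.83, 11.4 and 5.68 CPM in NNEp at St. 14, against 100.2, 122 and 159 CPM at St. 12.5 (log2 change -4.07 ± 0.28, adjusted p = 1.9e-05). The other copy, bmp4.l, had 29.4 to 42.9 CPM (median 34.4) at St. 14, against 137, 143 and 198 CPM at St. 12.5 (log2 change -2.18 ± 0.19, adjusted p = 5.8e-05). A bmp7.2 locus (xelaev18018155m.g) had 10.4, 11.8 and 19.3 CPM in NNEa and 21.3, 27.9 and 25.3 CPM in NNEp at St. 14, against 229.8, 263 and 182 CPM at St. 12.5 (log2 change -3.60 ± 0.22, adjusted p = 1.3e-05). For each of these 3 loci the 6 St. 14 libraries lay far below the St. 12.5 libraries, in NNEa as in NNEp.

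The secreted modulators szl.l and bmper.l fell further. Sizzled, szl.l, an inhibitor of the proteases that cleave Chordin, had 1 count in all 6 St. 14 libraries together, in NNEp replicate 2, against 16.5, 27.2 and 3.11 CPM at St. 12.5 (adjusted p = 0.00021). The ratio of the St. 12.5 level to that of St. 14 was 1232 (95% counting interval 220.2 to 48753). Counting intervals and floors cover counting error only, since amplified fragments are not independent molecules, and the 3 St. 12.5 libraries themselves spread over 3.11 to 27.2 CPM. The BMP-binding protein bmper.l, which acts on BMP both ways, had 0.0767, 0 and 0.619 CPM in NNEa and 2.88, 3.61 and 2.39 CPM in NNEp at St. 14, against 23, 41 and 26.2 CPM at St. 12.5 (log2 change -5.11 ± 0.48, adjusted p = 7.8e-05). It was nearly absent from NNEa and low in NNEp (log2 NNEa minus NNEp -3.54 ± 0.69, adjusted p = 0.02). The NNE minus NP difference of its log2 changes was -4.89 ± 0.79, adjusted p = 5.5e-05.

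Downstream of the receptors, feedback inhibitors and direct targets were lower as well. The pseudoreceptor bambi.s had 5.98, 4.90 and 6.95 CPM in NNEa and 8.39, 16.4 and 9.40 CPM in NNEp at St. 14, against 115, 165 and 97.6 CPM at St. 12.5 (log2 change -3.93 ± 0.26, adjusted p = 1.5e-05). The inhibitory Smad smad7-like.s had 3.76 to 16.0 CPM (median 5.19) at St. 14, against 37.6, 57.1 and 27.9 CPM at St. 12.5 (log2 change -2.60 ± 0.38, adjusted p = 0.00074), and smad9.s, a Smad that BMP receptors phosphorylate, had 0 to 0.419 CPM (median 0) at St. 14, against 3.81, 3.27 and 0.534 CPM at St. 12.5 (log2 change -4.53 ± 1.02, adjusted p = 0.007). Both groups of libraries stayed apart at these loci. Among targets, the ventral homeobox gene ventx1.1.s had 0.230, 0.490 and 1.24 CPM in NNEa and 0.525, 3.86 and 0.982 CPM in NNEp at St. 14, against 28.7, 62.1 and 25.3 CPM at St. 12.5 (log2 change -5.14 ± 0.58, adjusted p = 0.00019). The neighboring ventx1.2.s had 0.140 to 4.28 CPM (median 0.628) at St. 14, against 27.4, 38.1 and 17.2 CPM at St. 12.5 (log2 change -4.83 ± 0.65, adjusted p = 0.0005). The inhibitor of differentiation id2.l, a target with a helix-loop-helix but no DNA-binding region, had 24.5, 36.9 and 42.6 CPM in NNEa and 21.3, 29.7 and 13.2 CPM in NNEp at St. 14, against 114, 136 and 135 CPM at St. 12.5 (log2 change -2.23 ± 0.25, adjusted p = 0.0002). All 3 targets were lower in all 6 St. 14 libraries.

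Of the 6 BMP loci that rose, 5 belong to ligands and a type I receptor found mainly in NNEa. The ligand gene gdf6.s had 12.0, 20.6 and 14.7 CPM in NNEa and 0.262, 0.419 and 1.82 CPM in NNEp at St. 14, against 0.0930, 0.245 and 0.267 CPM at St. 12.5 (log2 change 4.12 ± 0.69, adjusted p = 0.0016), and its other copy gdf6.l had 1.22 to 25.4 CPM (median 7.2) at St. 14, against 1.86, 1.31 and 0.178 CPM at St. 12.5 (log2 change 2.54 ± 0.63, adjusted p = 0.011). The receptor bmpr1b.l had 17.7, 26.2 and 35.6 CPM in NNEa and 1.66, 1.01 and 1.89 CPM in NNEp at St. 14, against 0.558, 0.163 and 0.445 CPM at St. 12.5 (log2 change 4.02 ± 0.46, adjusted p = 0.0002). In both gdf6 copies NNEp overlapped the St. 12.5 range, whereas bmpr1b.l was higher in all 6 libraries. The ligand bmp5.l had 2.99, 4.33 and 2.68 CPM in NNEa and 0.612, 0.168 and 1.61 CPM in NNEp, against 0 at St. 12.5, at least 7.84-fold higher. The border markers that moved with NNEa are given below, and their part in these rises was not tested.

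**Figure D3:**
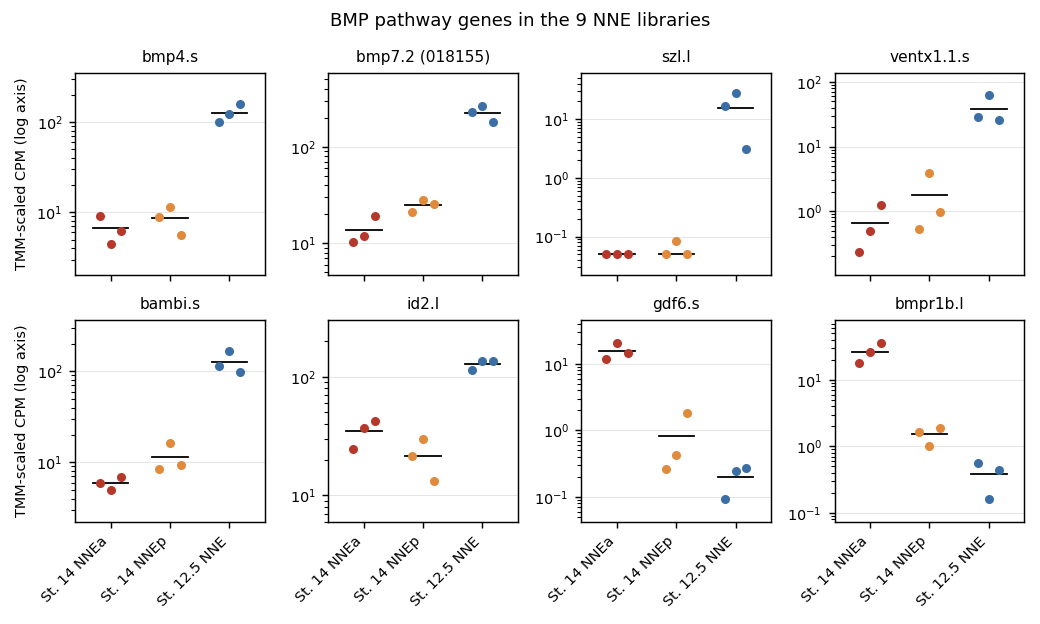
TMM-scaled CPM (log axes) of BMP pathway genes in NNEa and NNEp at St. 14 and NNE at St. 12.5, each point 1 library (n = 3 per group), each bar the group mean, and a level of 0 drawn at 0.05. The first 6 genes are lower in all 6 St. 14 libraries, and gdf6.s and bmpr1b.l are highest in NNEa, at 12.0 to 20.6 and 17.7 to 35.6 CPM.

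Whole embryos of the same stages, libraries the choice did not use, changed less at these loci. Of the 49 BMP loci, 10 fell and 0 rose in whole embryos (background 11.6% lower and 12.8% higher of 23274 loci tested), with a median log2 change of -0.19. bmp4.s had 67.5 and 66.9 CPM at St. 14, against 95.4 and 89.2 CPM at St. 12.5 in whole embryos (log2 change -0.46 ± 0.12, adjusted p = 0.017), bambi.s had 80.7 and 86.2 CPM at St. 14, against 93.3 and 81 CPM at St. 12.5 (log2 change -0.06 ± 0.15, adjusted p = 0.79), and szl.l had 27.2 and 35.3 CPM at St. 14, against 56.3 and 31.3 CPM at St. 12.5 (log2 change -0.49 ± 0.36, adjusted p = 0.35). In neural plate, 17 of the 49 loci had a change above that of NNE and 2 a change below it (background 7.54% above and 4.58% below of 23390 loci). One of the 17 was ventx1.1.l (NNE minus NP difference -3.77 ± 1.15, adjusted p = 0.026). szl and the ventx genes are known for ventral expression at these stages, and stage cannot be told apart here from the ventral position of part of the St. 12.5 explants.

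Notch genes showed 9 falls (19.6%) and 4 rises (8.7%) of 46 loci tested (median log2 change -0.34). The share of falls was near that over all loci tested (16.5%) and the share of rises below it (16.9%). Ligands were among the falls. The Delta ligand dll1.s had 1.23, 15.8 and 1.31 CPM in NNEa and 8.65, 4.28 and 8.77 CPM in NNEp at St. 14, against 55.9, 87.2 and 55.9 CPM at St. 12.5 (log2 change -3.32 ± 0.65, adjusted p = 0.0035), and dll1.l had 1.31 to 23.4 CPM (median 13.4) at St. 14, against 62.5, 82.1 and 41 CPM at St. 12.5 (log2 change -2.61 ± 0.58, adjusted p = 0.0065). A second Delta ligand, dlc.l, had 0.383, 15.0 and 0.482 CPM in NNEa and 3.93, 9.14 and 7.30 CPM in NNEp at St. 14, against 36.8, 65.5 and 22.1 CPM at St. 12.5 (log2 change -2.80 ± 0.83, adjusted p = 0.025). NNEa replicate 2 held the highest St. 14 value of dll1.s and dlc.l and also the most neural plate marker transcript, and every St. 14 library stayed below St. 12.5. The NNE minus NP difference of the log2 changes was -4.47 ± 0.68, adjusted p = 2.3e-05 for dll1.s, -4.63 ± 0.65, adjusted p = 7.4e-06 for dll1.l, and -5.22 ± 1.02, adjusted p = 0.00062 for dlc.l. Of the targets, the repressor hey1.s had 0.175 to 1.23 CPM (median 0.451) at St. 14, against 11.3, 10.7 and 2.22 CPM at St. 12.5 (log2 change -3.77 ± 0.58, adjusted p = 0.001), whereas hes1.s rose, with 21, 24.8 and 33.2 CPM in NNEa and 8.13, 10.7 and 11.8 CPM in NNEp at St. 14, against 4.74, 6.45 and 5.42 CPM at St. 12.5 (log2 change 1.56 ± 0.25, adjusted p = 0.0013). The call of dlc.l was lost with an adjusted p of 0.0555 without St. 12.5 replicate 1, 0.102 without St. 12.5 replicate 2 and 0.0558 without NNEp replicate 1.

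Factors of the uncommitted ectoderm of the blastula fell at 11 (25.6%) and rose at 6 (13.95%) of 43 loci (median log2 change -0.32), and 7 of the falls were the ventx genes also counted with BMP. Among the other 4 was foxh1.s, a partner of Smads in Nodal signaling, with 0 in all 6 St. 14 libraries, against 1.39, 0.735 and 1.16 CPM at St. 12.5, at least 4.67-fold lower. The Oct4 relative pou5f3.3.l had 0.153 to 0.817 CPM (median 0.522) at St. 14, against 5.02, 4.33 and 4.62 CPM at St. 12.5 (log2 change -3.20 ± 0.48, adjusted p = 0.00086), and tcf7l1.s, a repressor of Wnt targets, had 3.91, 5.23 and 4.61 CPM in NNEa and 9.18, 16.4 and 3.3 CPM in NNEp at St. 14, against 18.9, 58.3 and 96.4 CPM at St. 12.5 (log2 change -3.12 ± 0.50, adjusted p = 0.0012). The RNA-binding protein lin28a.l, in contrast, rose, with 291, 267 and 243 CPM in NNEa and 338, 332 and 479.7 CPM in NNEp at St. 14, against 123, 112 and 137 CPM at St. 12.5 (log2 change 1.37 ± 0.19, adjusted p = 0.0005), and lin28b.s had 14.0 to 20.7 CPM (median 16.2) at St. 14, against 2.51, 4.49 and 3.91 CPM at St. 12.5 (log2 change 2.23 ± 0.28, adjusted p = 0.00034). Both lin28 loci were higher in each St. 14 library.

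Of 31 loci of regulators of multiciliated cells, 16 fell and 0 rose (median log2 change -0.96). Of the falls 15 were without overlap, against 2772 of 3242 over all loci called lower. In whole embryos 4 of the 31 rose and 1 fell (background 12.8% higher and 11.6% lower), with a median log2 change of 0.06. In neural plate explants 9 rose and 6 fell, against 5555 rises and 5632 falls over the 19702 loci. The transcription factor rfx2.s, which activates ciliary genes, had 56, 58.9 and 50.1 CPM in NNEa and 50.5, 50.4 and 49.8 CPM in NNEp at St. 14, against 194, 212 and 188 CPM at St. 12.5 (log2 change -1.91 ± 0.14, adjusted p = 2.6e-05). The NNE minus NP difference of its log2 changes was -2.48 ± 0.27, adjusted p = 7.4e-08. Cyclin O, ccno.l, needed to multiply centrioles, had 48.5, 45.7 and 28.6 CPM in NNEa and 53.5, 52.3 and 19.1 CPM in NNEp at St. 14, against 134, 146 and 116 CPM at St. 12.5 (log2 change -1.68 ± 0.30, adjusted p = 0.0022). An mcidas locus (xelaev18008287m.g), the coactivator that starts the program, had 109, 92.6 and 62.9 CPM in NNEa and 92.3, 85.2 and 75.2 CPM in NNEp at St. 14, against 198, 267 and 264 CPM at St. 12.5 (log2 change -1.50 ± 0.20, adjusted p = 0.00043). Each of these 3 loci was lower in every St. 14 library, and NNEp replicate 3 was the lowest for ccno.l. In the fit of 51 libraries the calls of this mcidas locus (adjusted p = 0.2) and of ccno.l (0.052) were lost. There 10 regulators were lower in place of 16. The factor foxn4.s, which acts beside mcidas, had 30.0 to 52.2 CPM (median 44.8) at St. 14, against 96.6, 122 and 112 CPM at St. 12.5 (log2 change -1.39 ± 0.21, adjusted p = 0.00093). The factor myb.l, which acts early in these cells, had 3.58 to 7.55 CPM (median 6.11) at St. 14, against 14.5, 35 and 20.4 CPM at St. 12.5 (log2 change -1.96 ± 0.30, adjusted p = 0.001). The master factor of motile cilia foxj1.s had 83.8, 50.4 and 27.8 CPM in NNEa and 87.9, 86.7 and 44.5 CPM in NNEp at St. 14, against 97.8, 147 and 76.6 CPM at St. 12.5 and was not called (log2 change -0.77 ± 0.35, adjusted p = 0.11).

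Among 64 loci of the axoneme and of intraflagellar transport, 6 rose (9.38%) and 2 fell (3.13%), both below the shares over all loci tested (median log2 change 0.18). The dynein heavy chain dnah3.s had 27.5, 4.50 and 4.06 CPM in NNEa and 22.5, 15.4 and 20.8 CPM in NNEp at St. 14, against 1.02, 0.817 and 2.58 CPM at St. 12.5 (log2 change 3.38 ± 0.72, adjusted p = 0.0056), with no overlap. The inner arm dynein dnah6.s had 56.3, 13.7 and 5.30 CPM in NNEa and 45.9, 36.2 and 48.9 CPM in NNEp at St. 14, against 1.95, 5.47 and 6.94 CPM at St. 12.5 (log2 change 2.78 ± 0.70, adjusted p = 0.012), and tektin tekt1.s, a protein of the microtubule doublets, had 27.9, 7.85 and 5.92 CPM in NNEa and 21.8, 22.2 and 24.8 CPM in NNEp at St. 14, against 3.63, 4.49 and 8.45 CPM at St. 12.5 (log2 change 1.69 ± 0.50, adjusted p = 0.025). At all 3 loci NNEa replicates 2 and 3, from embryos 13 and 14, were lowest among the St. 14 libraries, and replicate 1 and NNEp were high. The calls of 2 of them were lost, dnah6.s at an adjusted p of 0.0603 without St. 12.5 replicate 1 and 0.051 without St. 12.5 replicate 2, and tekt1.s at 0.116 without St. 12.5 replicate 1 and 0.114 without St. 12.5 replicate 2. The other copy dnah3.l went the opposite way at a low level, with 0 to 0.671 CPM (median 0.339) at St. 14, against 2.14, 3.02 and 2.13 CPM at St. 12.5 (log2 change -2.87 ± 0.70, adjusted p = 0.01).

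Ionocytes, cells that pump protons and exchange ions, had 5 loci higher and 5 lower of 34 tested (median log2 change 0.05). Each was 14.7%, near the shares over all loci tested. Of the 34, 8 were lower in NNEa than in NNEp (background 1.71% of the loci tested) and 0 higher. Carbonic anhydrase ca12.l had 19.9, 2.86 and 11.0 CPM in NNEa and 62.9, 95.2 and 69.7 CPM in NNEp at St. 14, against 132, 113 and 111 CPM at St. 12.5 (log2 change -2.02 ± 0.41, adjusted p = 0.004), with all St. 14 libraries below St. 12.5 and NNEa lowest (log2 NNEa minus NNEp -2.75 ± 0.52, adjusted p = 0.018). Its stage call was lost at an adjusted p of 0.143 with counts summed per embryo and 0.184 with 1 mean for the 6 St. 14 libraries. The forkhead factor foxi1.s, which specifies ionocytes, had 32.4, 22.9 and 17.1 CPM in NNEa and 81, 125 and 66.5 CPM in NNEp at St. 14, against 147, 211 and 97.5 CPM at St. 12.5 (log2 change -1.70 ± 0.29, adjusted p = 0.0017). NNEp replicate 2 overlapped St. 12.5, and NNEa lay below NNEp (log2 difference -1.91 ± 0.36, adjusted p = 0.017). With the same 2 settings its adjusted p rose to 0.0535 and 0.0796. A subunit of the proton pump, atp6v1h.l, had 2.61 to 11.2 CPM (median 6.42) at St. 14, against 23.7, 15.8 and 16.2 CPM at St. 12.5 (log2 change -1.71 ± 0.27, adjusted p = 0.0013), again with NNEa below NNEp (log2 difference -1.45 ± 0.34, adjusted p = 0.045), and its NNE minus NP difference was 1.73 ± 0.44, adjusted p = 0.0069. Another subunit, atp6v0b.l, had 19.1 to 82.4 CPM (median 41.2) at St. 14, against 20.8, 14.9 and 20.2 CPM at St. 12.5 (log2 change 1.15 ± 0.31, adjusted p = 0.016), with overlap, and its adjusted p rose to 0.1 without St. 12.5 replicate 2 and 0.0687 without St. 12.5 replicate 3. The second copy foxi1.l had 43.2, 31.3 and 30.1 CPM in NNEa and 112, 162 and 119.9 CPM in NNEp at St. 14, against 110.0, 145 and 77.7 CPM at St. 12.5, falling in NNEa alone, and was not called.

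Goblet cell genes gave 3 rises (17.65%, near the share over all loci tested) and 6 falls (35.3%) of 17 loci (median log2 change -0.68). The uroplakin upk3a.l, a membrane protein of secretory and bladder epithelia, was the most abundant that fell, with 553, 339.9 and 324 CPM in NNEa and 574, 531 and 1013 CPM in NNEp at St. 14, against 1968, 1476 and 1574 CPM at St. 12.5 (log2 change -1.64 ± 0.24, adjusted p = 0.0008). The mucus-associated protein fcgbp.s had 0.772 to 3.02 CPM (median 1.91) at St. 14, against 9.30, 7.84 and 10.4 CPM at St. 12.5 (log2 change -2.27 ± 0.38, adjusted p = 0.0016), and spdef.s, a goblet cell factor in mammals, had 7.05 to 12.2 CPM (median 10.1) at St. 14, against 26.7, 12.5 and 25.1 CPM at St. 12.5 (log2 change -1.11 ± 0.29, adjusted p = 0.014, 0.0555 without St. 12.5 replicate 1). These were lower in every St. 14 library. The disulfide isomerase agr2.s, also a cement gland gene, had 2.94 to 17.4 CPM (median 9.76) at St. 14, against 21.8, 15.5 and 34.8 CPM at St. 12.5 (log2 change -1.45 ± 0.39, adjusted p = 0.016, 0.0831 without St. 12.5 replicate 3), with overlap. A muc4 locus (xelaev18027450m.g), a membrane mucin, had 41.6, 4.82 and 3.10 CPM in NNEa and 44.1, 30.8 and 48.8 CPM in NNEp at St. 14, against 0.372, 3.10 and 2.67 CPM at St. 12.5 (log2 change 3.65 ± 0.92, adjusted p = 0.012, 0.0526 without St. 12.5 replicate 1). The calpain capn9.s had 32.0, 5.80 and 3.17 CPM in NNEa and 35.2, 26.9 and 61.6 CPM in NNEp at St. 14, against 2.05, 2.45 and 7.11 CPM at St. 12.5 (log2 change 2.61 ± 0.76, adjusted p = 0.023, 0.101 without St. 12.5 replicate 1 and 0.103 without St. 12.5 replicate 2). NNEa replicates 2 and 3 were again the low St. 14 libraries of both genes. The secreted lectin itln1.l, which marks goblet cells, had 2012, 586 and 295 CPM in NNEa and 1927, 2096 and 3721 CPM in NNEp at St. 14, against 738, 363 and 1097 CPM at St. 12.5 and was not called (log2 change 1.11 ± 0.56, adjusted p = 0.15), and in whole embryos it had 595 and 671 CPM at St. 14, against 117 and 142 CPM at St. 12.5 (log2 change 2.29 ± 0.41, adjusted p = 0.0024). The small secretory cell factor foxa1.l had 0.690, 0.817 and 0 CPM in NNEa and 13.2, 34.9 and 8.56 CPM in NNEp at St. 14, against 1.67, 0.817 and 3.56 CPM at St. 12.5, high in NNEp alone, and neither of the 2 foxa1 loci was called.

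**Figure D4:**
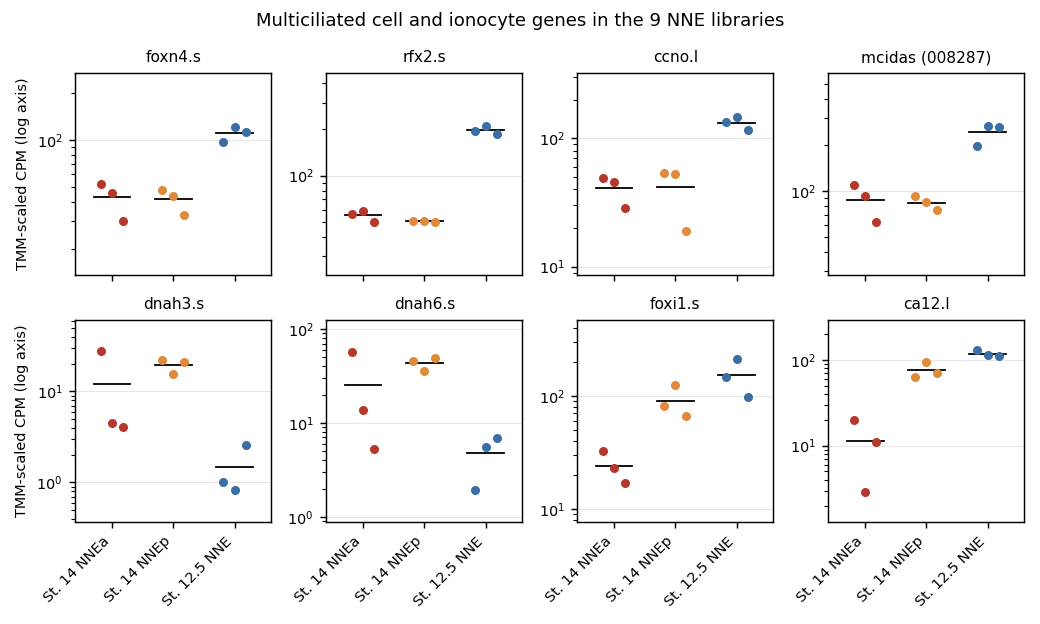
TMM-scaled CPM (log axes) of multiciliated cell regulators (foxn4.s, rfx2.s, ccno.l, mcidas), axonemal dyneins (dnah3.s, dnah6.s), and ionocyte genes (foxi1.s, ca12.l) in NNEa and NNEp at St. 14 and NNE at St. 12.5, each point 1 library (n = 3 per group) and each bar the group mean. Regulators are lower in all 6 St. 14 libraries, dnah3.s is higher in all 6 at 4.06 to 27.5 CPM, and ca12.l is lowest in NNEa at 2.86 to 19.9 CPM.

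Cell cycle genes fell at 34 and rose at 6 of 91 loci, although the median log2 change was small at -0.31. Of the falls 31 were without overlap, against 2772 of 3242 over all loci called lower. Ribonucleotide reductase rrm2.1.l, which supplies deoxynucleotides for DNA synthesis and is one of the 5 falls with the smallest p, had 34.1, 35.2 and 40.5 CPM in NNEa and 41.5, 46.7 and 55.6 CPM in NNEp at St. 14, against 331, 321 and 276 CPM at St. 12.5 (log2 change -2.88 ± 0.16, adjusted p = 8.1e-06). The replicative helicase subunit mcm6.l had 5.47 to 9.65 CPM (median 7.91) at St. 14, against 50.9, 70.2 and 67.6 CPM at St. 12.5 (log2 change -3.0 ± 0.20, adjusted p = 1.9e-05), and the mitotic kinase cdk1.l had 33.2 to 48.1 CPM (median 39.3) at St. 14, against 77.8, 92.1 and 74.2 CPM at St. 12.5 (log2 change -1.03 ± 0.18, adjusted p = 0.0019). Each was lower in all 6 St. 14 libraries. In neural plate 64 of the 91 loci fell and 7 rose. Over the 19702 loci 5632 fell and 5555 rose there, and 55.6% of 23390 loci were called in either direction. In whole embryos 11 of 90 fell and 11 rose, near the background there of 11.6% lower and 12.8% higher. mcm6.l had 61.4 and 77.6 CPM at St. 14, against 62.2 and 63.3 CPM at St. 12.5 in whole embryos (log2 change 0.15 ± 0.29, adjusted p = 0.75).

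The largest changes were taken among 3383 called loci (17.2% of those tested) with at least 10 CPM in the higher stage and no overlap between stages. The rise of largest size was that of chac1-like.l, an enzyme that degrades glutathione, with 208, 6.87 and 36.6 CPM in NNEa and 174, 135 and 106 CPM in NNEp at St. 14, against 0.0930, 0 and 0 CPM at St. 12.5. Only 1 count was found at St. 12.5, and the ratio of the St. 14 level to that of St. 12.5 was 3729.8 (95% counting interval 669 to 147340.0). Among the 15 largest rises was also the hyaluronidase-family gene hyal4.l, with 1.15, 0.245 and 0.482 CPM in NNEa and 33.9, 38.3 and 26.3 CPM in NNEp, against 0 at St. 12.5 (at least 63.5-fold higher). NNEa lay below NNEp for hyal4.l (log2 difference -5.69 ± 0.51, adjusted p = 0.0013). The same group held developmental regulators. The Hox gene hoxb4.s had 3.83, 4.41 and 9.56 CPM in NNEa and 42.9, 34.9 and 32.0 CPM in NNEp at St. 14, against 0.186, 0.163 and 0 CPM at St. 12.5 (log2 change 6.86 ± 0.60, adjusted p = 5.4e-05), and the ligand wnt3a.l had 20.3, 16.8 and 20.2 CPM in NNEa and 67.5, 54.9 and 69.6 CPM in NNEp at St. 14, against 1.02, 0 and 0 CPM at St. 12.5 (log2 change 6.70 ± 0.76, adjusted p = 0.0002). The homeobox gene emx2 (xelaev18036663m.g) had 0.690, 0.490 and 0.826 CPM in NNEa and 75.3, 89.5 and 27.4 CPM in NNEp at St. 14, against 0, 0 and 0.178 CPM at St. 12.5, with 2 counts at St. 12.5 and a ratio of 519 (95% counting interval 143 to 4287). NNEp exceeded NNEa for hoxb4.s (log2 NNEa minus NNEp -2.62 ± 0.42, adjusted p = 0.0079), for emx2 (-6.55 ± 0.59, adjusted p = 0.00069), and for the kinase gene mapk12-like.1.l (-5.83 ± 0.58, adjusted p = 0.001). Other large rises were of genes that handle amino acids, with the transporter slc38a2 (xelaev18021125m.g) at 5.23 to 51.6 CPM (median 29.5) at St. 14, against 0, 0 and 0.356 CPM at St. 12.5, the serine synthesis enzyme psat1.s at 10.5 to 88.3 CPM (median 57.8) at St. 14, against 0.0930, 0.408 and 0.267 CPM at St. 12.5, and the glycine transporter slc6a9.s at 3.19 to 20.8 CPM (median 16.0) at St. 14, against 0.0930, 0.163 and 0.178 CPM at St. 12.5. The Rag GTPase rragc.1, a nutrient sensor and one of the 5 rises with the smallest p, had 40.0, 58.9 and 63.8 CPM in NNEa and 26.1, 18.1 and 31.3 CPM in NNEp at St. 14, against 1.49, 1.96 and 1.51 CPM at St. 12.5 (log2 change 4.47 ± 0.32, adjusted p = 1.9e-05).

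Of the 15 largest falls 8 and of the 15 largest rises 3 had no gene name in the table. The fall of largest size was at one of these, xelaev18001526m.g, with 0 in all 6 St. 14 libraries, against 206, 181 and 114 CPM at St. 12.5, at least 712-fold lower. The oocyte gene zar1.s had 0 in all 6, against 13.3, 11.8 and 10.8 CPM, at least 51.1-fold lower. Among the largest falls were 3 suppressors of cytokine signaling. socs3.s had 0 to 0.163 CPM (median 0) at St. 14, against 14.3, 8.90 and 22 CPM at St. 12.5 (adjusted p = 5.8e-05), and socs3.l had 0 to 0.572 CPM (median 0.111) at St. 14, against 28.9, 9.72 and 14.6 CPM at St. 12.5 (adjusted p = 3.1e-05). socs1.l had 0.767, 1.14 and 3.10 CPM in NNEa and 0, 0 and 0 CPM in NNEp at St. 14, against 11.7, 18.5 and 26 CPM at St. 12.5 (adjusted p = 0.00014). It was at 0 in the 3 NNEp libraries, and NNEa was at least 6.91-fold higher with 3 counts per library as the floor. The transporter gene slc6a3-like.s had 0.307, 0.490 and 0.482 CPM in NNEa and 0, 0.419 and 0 CPM in NNEp at St. 14, against 2.32, 54.4 and 63.3 CPM at St. 12.5, where St. 12.5 replicate 1 was far below the other two. The serpin serpinb1.l had 0 to 0.503 CPM (median 0.0383) at St. 14, against 10.8, 13.8 and 13.3 CPM at St. 12.5, athl1.1 had 0.923 to 2.21 CPM (median 1.26) at St. 14, against 26, 25.1 and 25.4 CPM at St. 12.5 (log2 change -4.24 ± 0.23, adjusted p = 8.1e-06), and phldb3-like.l had 0.842 to 4.33 CPM (median 1.26) at St. 14, against 95.9, 131 and 79 CPM at St. 12.5 (log2 change -5.87 ± 0.32, adjusted p = 8.1e-06). The NNE minus NP difference of phldb3-like.l was -5.60 ± 0.89, adjusted p = 4.1e-05.

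Markers of tissues next to the epidermis moved with the piece. Of 23 loci of border and crest markers, 14 rose and 1 fell (median log2 change 2.91), but 15 were higher in NNEa than in NNEp (background 1.72%) and none lower, and the median was 5.29 in NNEa and 0.86 in NNEp. The list summed to 1388 to 1865 CPM in NNEa and 119.3 to 175.6 CPM in NNEp, against 131.3 to 213.6 CPM at St. 12.5, so that NNEp overlapped St. 12.5. The zinc finger gene zic1.l, a regulator of the border, had 73.9, 120.2 and 206 CPM in NNEa and 2.27, 0.755 and 0.491 CPM in NNEp at St. 14, against 0.558, 0.163 and 0.178 CPM at St. 12.5 (log2 change 5.35 ± 0.67, adjusted p = 0.00033), with NNEa above NNEp (log2 difference 6.85 ± 0.63, adjusted p = 0.00069) and a change above that of neural plate (log2 difference 5.69 ± 0.80, adjusted p = 7.8e-06). The crest specifier foxd3.l had 70.5, 61.6 and 32.2 CPM in NNEa and 0.437, 0 and 0.0702 CPM in NNEp, against 0 at St. 12.5 (at least 104-fold higher), and the crest factor twist1.s had 19.6, 12.0 and 13.6 CPM in NNEa and 0.525, 0.503 and 0.702 CPM in NNEp at St. 14, against 0.0930, 0.0817 and 0.445 CPM at St. 12.5. Of 17 placode loci 3 rose (17.65%) and 1 fell (5.88%), against 16.9% and 16.5% of all loci tested, and 8 were higher in NNEa than in NNEp. The genes gdf6.s, bmpr1b.l, and mafb.l were highest in the same 3 libraries, and the part of border tissue in the calls was not tested.

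Explants were also set beside whole embryos across all calls. Of 3266 loci called higher in NNE and tested in whole embryos, 870 rose there and 121 fell. Among the 19380 loci shared by both tests, 2508 rose and 2441 fell in whole embryos. Of 3179 called lower, 887 fell in whole embryos and 141 rose. The stage change in neural plate differed from that in NNE at 980 of the 6564 called loci. Over all 23390 loci tested it differed at 2834 (12.1%). Some neural plate explants of St. 14 carried epidermal keratin. The keratin krt12.s reached 181 to 669 CPM in those of embryos 10 and 11, against 3.07 and 11.3 CPM in embryos 13 and 14 and 1.03 to 34.7 CPM at St. 12.5, and the part of this in the differences from neural plate was not tested. With the posterior neural plate of embryos 13 and 14 as the only St. 14 neural plate, 1104 loci differed in place of 2834, and 1776 and 1814 differed without St. 12.5 NNE replicates 2 and 3. Among whole embryos 5662 loci were called (24.3%), against 3237 and 3006 without St. 14 replicates 1 and 2 and 2842 and 3349 without St. 12.5 replicates 1 and 2.

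Immediate early genes, which many stimuli and wounding induce within minutes, were high in the St. 12.5 explants. Of 29 loci 17 fell and 0 rose (median log2 change -1.18). All 17 were without overlap, against 2772 of 3242 over all loci called lower. The list summed to 697.2 to 929.8 CPM in NNEa and 833.8 to 890.7 CPM in NNEp, against 1675 to 3642 CPM at St. 12.5. The AP-1 subunit fos.s had 7.29, 5.64 and 2.41 CPM in NNEa and 8.04, 6.71 and 8.49 CPM in NNEp at St. 14, against 292, 74.2 and 55.6 CPM at St. 12.5 (log2 change -4.48 ± 0.50, adjusted p = 0.00018), and whole embryos had 3.98 and 4.31 CPM at St. 14, against 1.64 and 2.62 CPM at St. 12.5. The AP-1 subunit junb.l had 16.1 to 37.3 CPM (median 30.3) at St. 14, against 703, 202 and 196 CPM at St. 12.5 (log2 change -3.67 ± 0.39, adjusted p = 0.00015), with 6.03 and 13.9 CPM at St. 14, against 9.47 and 8.11 CPM at St. 12.5 in whole embryos. St. 12.5 replicate 1 was the highest of the NNE libraries at fos.s and junb.l. The nuclear receptor nr4a1.s had 1.99, 17.3 and 49.8 CPM in NNEa and 2.71, 3.36 and 6.81 CPM in NNEp at St. 14, against 381, 163 and 231 CPM at St. 12.5 (log2 change -4.69 ± 0.68, adjusted p = 0.00076). In whole embryos 8 of the 29 loci rose and 0 fell, while in neural plate explants 2 rose and 17 fell, with fos.s at a log2 change of -4.89 ± 1.04, adjusted p = 0.00013. Over the 19702 loci tested in NNE, 5555 rose and 5632 fell in neural plate. The whole embryo background was 12.8% higher and 11.6% lower.

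Genes of the response to amino acid shortage went the other way in the explants. Of 50 loci 26 rose and 2 fell (median log2 change 1.18), 29 rose and 4 fell in neural plate explants, and 7 rose and 7 fell in whole embryos. The neural plate background was 5555 rises and 5632 falls over 19702 loci. That of whole embryos was 12.8% higher and 11.6% lower of 23274 loci, and the whole embryo counts of this list lay near it. The phosphatase psph.l, the last step of serine synthesis, had 147, 22.5 and 37.6 CPM in NNEa and 129.8, 113 and 139.7 CPM in NNEp at St. 14, against 12.6, 16.7 and 13.9 CPM at St. 12.5 (log2 change 2.70 ± 0.54, adjusted p = 0.0039), with 11.3 and 12.9 CPM at St. 14, against 11.1 and 12.1 CPM at St. 12.5 in whole embryos. The transporter subunit slc3a2.l had 1.14 to 33.3 CPM (median 22.6) at St. 14, against 0.930, 0.490 and 1.07 CPM at St. 12.5 (log2 change 4.49 ± 0.93, adjusted p = 0.0046), and its partner slc7a5.l had 107, 3.11 and 15.6 CPM in NNEa and 85.0, 63.0 and 43.7 CPM in NNEp at St. 14, against 4.46, 6.53 and 2.22 CPM at St. 12.5 (log2 change 3.55 ± 0.95, adjusted p = 0.016, 0.0692 without St. 12.5 replicate 1, 0.0528 without St. 12.5 replicate 2 and 0.0793 without St. 12.5 replicate 3). The stress-induced factor ddit3.l had 3.3 to 6.19 CPM (median 4.1) at St. 14, against 0.930, 0.898 and 0 CPM at St. 12.5 (log2 change 2.87 ± 0.70, adjusted p = 0.01). NNEa replicates 2 and 3 had the lowest values of psph.l, slc3a2.l, and slc7a5.l at St. 14, as they did of dnah6.s and muc4. chac1-like.l, at 6.87 to 208 CPM in St. 14 NNE, had 0.0686 and 0.141 CPM at St. 14, against 0.157 and 0 CPM at St. 12.5 in whole embryos. Both lists were written after values of some members had been seen. The part of explant handling in these or other calls was not tested.

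**Figure D5:**
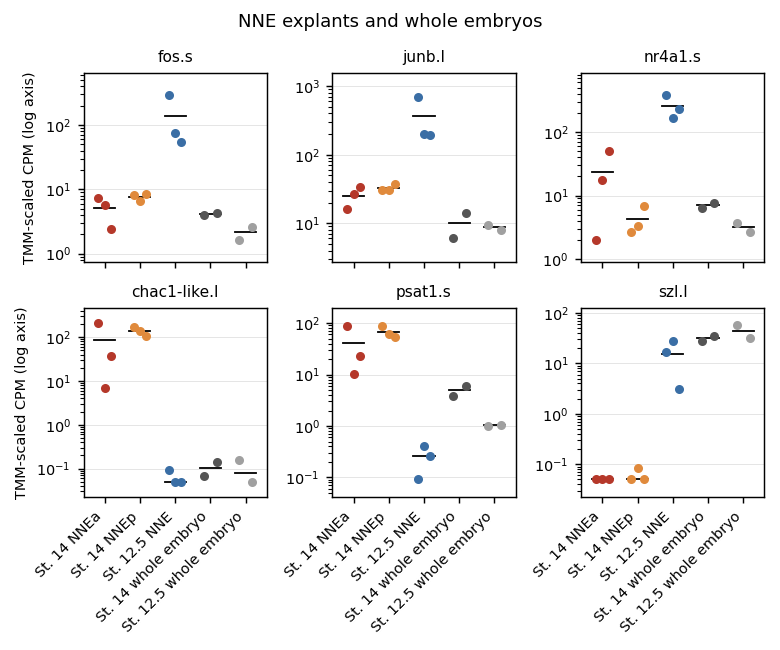
TMM-scaled CPM (log axes) in NNEa and NNEp at St. 14, NNE at St. 12.5, and whole embryos at St. 14 and St. 12.5, each point 1 library (n = 3 per explant group and 2 per embryo stage), each bar the group mean, and a level of 0 drawn at 0.05. Explants of St. 12.5 reach 292 CPM of fos.s and those of St. 14 reach 208 CPM of chac1-like.l, while whole embryos stay at or below 4.31 and 0.157 CPM.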

How the data were processed

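Total RNA of single explants and embryos was sequenced by the authors as poly(A)-selected, strand-specific libraries with paired reads of 100 bases, from explants with at least 40 ng of RNA of sufficient quality. Pairs were aligned by the authors with TopHat2 2.0.14, pairs mapping to several places were excluded, and the deposited counts are whole fragments per locus from HTSeq on gene models extended with assembled transcripts. The strand setting of the counting is not given in the sources used here, so overlapping and antisense genes are uncertain. Of 45099 loci, 24413 were named in the table, 1084 from annotation in the supplementary tables of the study, and 19602 had no name. The 5 summary rows held 17.3% to 19.5% of each NNE library and were left out, and 0 columns were unmapped. Columns of comparisons by the authors were not used.

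Loci that exceeded 10 counts in 2 or more of the 9 libraries were tested with edgeR 4.0.16 (R 4.3.3) by the quasi-likelihood test with TMM scaling and a mean each for NNEa, NNEp, and St. 12.5, and p-values were adjusted by the method of Benjamini and Hochberg. The stage change is the average of the NNEa and NNEp changes. Neural plate was compared in a fit of 51 libraries with 14 means and whole embryos in a fit of 16 libraries with 8 means. Neither these fits nor that of NNE held a term for embryo. Tables were made with Python 3.11.15, pandas 2.3.3, numpy 2.4.6, and scipy 1.17.1, and plots with matplotlib 3.10.9. The fit was tested on simulated data of 19134 loci, where it recovered 46 of 50 simulated 4-fold rises and 43 of 50 4-fold falls, 8 of 50 2-fold rises and 6 of 50 2-fold falls, and called 10 unchanged loci. The changed loci had a mean of at least 50 counts per library before the change and the same fold in NNEa and NNEp. Recovery of scarcer loci, or of changes that differ between NNEa and NNEp, was therefore not tested. Only 200 simulated loci were changed, a far smaller share than the 33.3% called in the data. The adjusted p depends on that share, so these recoveries do not carry over to the data.

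The members and gene lists were chosen with earlier results of these data known. Loci were named by rule: called members of the lists of epidermal factors, keratins, desmosomes, goblet cells, multiciliated regulators, ionocytes, small secretory cells, Notch, BMP, and pluripotency, those 4 of largest change and at least 10 CPM first; the 15 largest rises and falls without overlap; the 5 smallest p in each direction; and defining markers. Members of other lists and loci named though not called were chosen after their values were seen. Alternatives were DESeq2 1.42.0, limma 3.58.1 (voom, also with embryo as a block), other scalings, filters, call rules, and samples, and each library left out in turn. Sequences of these genes were not used here, and 1 gene that the rule named is not reported here.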

Additional observations from a re-analysis of the deposited data

Results flagged for a closer look

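NNEa and NNEp at St. 14 were compared in the same fit, and 675 loci differed between them. Of 66 named loci compared, 14 differed between NNEa and NNEp, against 3.43% of all loci tested. The 66 were picked by their changes or p in these same data, so this count is no result about them. Higher in NNEa were the border factor zic1.l (log2 NNEa minus NNEp 6.85 ± 0.63, adjusted p = 0.00069), mafb.l (4.77 ± 0.98, adjusted p = 0.025), xetrov90008749m.l (1.89 ± 0.28, adjusted p = 0.0063), and socs1.l, which was at 0 in all 3 NNEp libraries (at least 6.91-fold higher in NNEa). Lower in NNEa were the homeobox genes emx2 (xelaev18036663m.g, -6.55 ± 0.59, adjusted p = 0.00069) and hoxb4.s (-2.62 ± 0.42, adjusted p = 0.0079), mapk12-like.1.l (-5.83 ± 0.58, adjusted p = 0.001), hyal4.l (-5.69 ± 0.51, adjusted p = 0.0013), the basal cell factor tp63.l (-4.20 ± 0.43, adjusted p = 0.0012), the BMP-binding bmper.l (-3.54 ± 0.69, adjusted p = 0.02), the ionocyte genes ca12.l (-2.75 ± 0.52, adjusted p = 0.018), foxi1.s (-1.91 ± 0.36, adjusted p = 0.017), and atp6v1h.l (-1.45 ± 0.34, adjusted p = 0.045), and xelaev18017637m.g (-2.28 ± 0.40, adjusted p = 0.012). NNEa and NNEp shared only embryo 10, so piece and embryo cannot be told apart for the other libraries.

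The NNE change differed from that in neural plate at 2834 loci (12.1% of those tested), and at 13 of the same 66 picked loci. Above neural plate (NNE minus NP log2 change) were the border factor zic1.l (5.69 ± 0.80, adjusted p = 7.8e-06), desmoplakin dsp.s (1.97 ± 0.43, adjusted p = 0.0018), and atp6v1h.l (1.73 ± 0.44, adjusted p = 0.0069). Below it were hes3.3.s (-7.98 ± 1.22, adjusted p = 2.8e-05), phldb3-like.l (-5.60 ± 0.89, adjusted p = 4.1e-05), the Delta ligands dlc.l (-5.22 ± 1.02, adjusted p = 0.00062), dll1.l (-4.63 ± 0.65, adjusted p = 7.4e-06), and dll1.s (-4.47 ± 0.68, adjusted p = 2.3e-05), bmper.l (-4.89 ± 0.79, adjusted p = 5.5e-05), ventx1.1.l (-3.77 ± 1.15, adjusted p = 0.026), and rfx2.s (-2.48 ± 0.27, adjusted p = 7.4e-08). For the other 2, socs1.l and the unnamed xelaev18001526m.g, no size is given, since NNEp or all St. 14 NNE libraries were at 0. Epidermal keratin in the St. 14 neural plate explants moved with this comparison, and its part was not tested.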

How the results depend on the processing

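Of 152 called loci considered for naming, 100 kept their call under every alternative. The 152 were picked as called in these same data, some for their size or p, so these counts do not describe all calls. Alternatives that changed the call rule alone used the same fitted changes and could not reverse a sign. Over the alternatives other than leaving out a library, 2109 of 2262 values stayed past the threshold, 153 fell short, and 0 reversed, and with single libraries left out 1275 of 1360 stayed past it, 85 fell short, and 0 reversed. Of loci not called, cdx1.s changed sign to 5.69 without St. 12.5 replicate 1 (-1.49 to 5.69 with single libraries left out). With an FDR of 0.05 asked of NNEa and of NNEp separately, 3598 loci were called (1798 higher, 1800 lower), with 5 epidermal factors higher and 15 lower. This setting lost the calls of 42 of the 152, among them tp63.l, zic1.l, twist1.s, foxd3.l, gdf6.s, itga3.l, cdh1.l, vgll1.s, and grhl2.l. Border and crest rises numbered 1 in place of 14, Notch falls 3 in place of 9, and goblet cell falls 2 in place of 6. Ionocyte loci were 0 higher and 1 lower in place of 5 and 5, and axoneme rises 2 in place of 6. BMP falls numbered 22 in place of 31, and falls of multiciliated regulators 13 in place of 16. With 51 libraries in 1 fit, 10 multiciliated regulators and 14 epidermal factors were lower, and 20 of the 152 lost their call. With counts summed per embryo, 5213 loci passed the FDR without the rule on signs (2646 higher, 2567 lower), and 17 of the 152 lost their call. Without embryo 11, 2195 loci were higher. Without embryos 13 and 14, 24 loci differed between NNEa and NNEp. With posterior neural plate of embryos 13 and 14 alone, 1104 loci differed from NNE, an alternative chosen after seeing the data, as were those that leave out embryos. DESeq2's Wald test called 7644 loci and voom 6275. The cause of these shifts was not tested.

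Leaving out single libraries gave 4211 to 7148 calls, 1710 to 3398 higher and 2501 to 3881 lower, 24 to 32 BMP loci, 12 to 18 multiciliated regulators, and 17 to 25 epidermal factors lower, and 7 to 13 epidermal factors higher. NNEa alone gave 3367 to 6580 and NNEp alone 3702 to 6791, NNEa and NNEp differed at 234 to 2885, NNE and neural plate at 1776 to 2997, and whole embryo stages at 2842 to 3349.

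No embryo gave explants at both stages, so stages could not be paired by embryo. With embryo as a replicate block in voom 6647 loci were called, against 6275 without it, and the estimated correlation within an embryo was -0.196. Embryos 10 and 11 alone gave several NNE libraries, so this correlation is poorly determined and does not settle the effect of repeated embryos. Most simulated 2-fold changes were missed, but only 200 of 19134 loci were changed there, a far smaller share than was called in the data. Recovery of 2-fold changes in the data is therefore not known.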

Other observations

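Transcripts that the frog oocyte stores were lower at St. 14. Of 27 loci tested, 17 fell and 1 rose (median log2 change -1.68). All 17 were without overlap, against 2772 of 3242 over all loci called lower. The list summed to 144.8 to 151.9 CPM in NNEa and 165.8 to 207 CPM in NNEp, against 472.8 to 528.6 CPM at St. 12.5. The oocyte growth factor gdf9.l had 0.153, 0.245 and 0.482 CPM in NNEa and 0.175, 0 and 0.421 CPM in NNEp at St. 14, against 29.1, 22.3 and 21.3 CPM at St. 12.5 (log2 change -6.54 ± 0.46, adjusted p = 1.9e-05). The importin kpna7.l had 0.307, 0.327 and 0.275 CPM in NNEa and 0.612, 0.419 and 1.12 CPM in NNEp at St. 14, against 33.3, 22.4 and 20.5 CPM at St. 12.5 (log2 change -5.72 ± 0.32, adjusted p = 8.1e-06), and the oocyte linker histone h1foo.s had 8.99 to 16.3 CPM (median 11.5) at St. 14, against 66.7, 78.7 and 70.6 CPM at St. 12.5 (log2 change -2.58 ± 0.18, adjusted p = 1.9e-05). No St. 14 library overlapped St. 12.5 at these loci. In whole embryos 12 of the 27 fell and 1 rose (background 11.6% lower and 12.8% higher), with a median log2 change of -0.88. In neural plate 19 fell and 2 rose, against 5632 falls and 5555 rises over 19702 loci. The list was written after values of some members had been seen.

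Markers of deeper tissues were measured as well. The mesoderm list summed to 517.7 to 577 CPM in NNEa and 759 to 1154 CPM in NNEp, against 555.8 to 629.5 CPM at St. 12.5, the list of ventral mesoderm and blood to 3.14 to 6.40 CPM in NNEa and 308.1 to 406.1 CPM in NNEp, against 15.3 to 86.9 CPM at St. 12.5, and the endoderm list to 114.7 to 147.7 CPM in NNEa and 71.5 to 93.3 CPM in NNEp, against 127.3 to 172.9 CPM at St. 12.5. Of 10 endoderm loci tested 6 fell (60%) and 2 rose (20%), against 16.5% and 16.9% of all loci tested. The endodermal factor gata4.s had 0, 0 and 0 CPM in NNEa and 0.0874, 0 and 0 CPM in NNEp at St. 14, against 5.02, 7.51 and 0.889 CPM at St. 12.5, and gata6.s had 0.997, 1.39 and 0.826 CPM in NNEa and 0.612, 0 and 0 CPM in NNEp at St. 14, against 3.35, 17.5 and 6.40 CPM at St. 12.5 (log2 change -4.29 ± 0.74, adjusted p = 0.0019). Of 7 loci of ventral mesoderm and blood 2 fell (28.6%) and 1 rose (14.3%). Among them foxf1.s, a factor of lateral mesoderm, had 0.0767, 0 and 0.206 CPM in NNEa and 0.175, 0 and 0 CPM in NNEp at St. 14, against 2.70, 1.88 and 1.07 CPM at St. 12.5 (log2 change -4.50 ± 0.83, adjusted p = 0.0026). gata4.s, gata6.s, and foxf1.s were at or below 1.39 CPM in all St. 14 libraries. Of 13 mesoderm loci 3 rose (23.1%) and 2 fell (15.4%). The smooth muscle light chain gene myl9.1 had 34.1 to 138 CPM (median 75.3) at St. 14, against 15.3, 13.6 and 14.9 CPM at St. 12.5 (log2 change 2.2 ± 0.18, adjusted p = 4.5e-05). The defining mesoderm marker t.s had 15.2, 9.97 and 2.27 CPM in NNEa and 5.51, 6.71 and 15.0 CPM in NNEp at St. 14. At St. 12.5 t.s had 1.30, 0.163 and 0.534 CPM (log2 change 3.78, adjusted p = 0.0045). Of the other defining mesoderm loci, myod1.s was not called (adjusted p = 0.203) and the rest were too scarce to be tested. Of 29 neural plate loci 6 rose (20.7%) and 3 fell (10.3%), and of 8 loci of the cement and hatching glands 4 fell (50%) and 0 rose. The cdx1.s gene, which the study lists among posterior genes, had 0.383, 0.0817 and 1.79 CPM in NNEa and 298, 336 and 395 CPM in NNEp at St. 14, against 77.4, 0.245 and 0.356 CPM at St. 12.5, with St. 12.5 replicate 1 far above the other two and NNEp far above NNEa. It held most of the sum of the ventral list in NNEp. The defining markers of ventral mesoderm and blood summed to at most 0.844 CPM in any library. The part of deeper tissues in the calls was not tested.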
